A study of Rattus norvegicus with 15 samples.

Results

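The hypoxia-inducible factors Hif1a and Epas1 and 8 genes they are known to control were followed in rat ductus arteriosus and aorta around birth. The 8 were Bnip3, Slc2a1, Hk1, Hk2, Pfkm, Ldha, Vegfa and Adm. Members were all probe sets that the chip annotation assigns to 1 of these symbols alone. Of the 10 genes, 9 had such a probe set, out of 10969 named genes in all. Ldha was measured only by a probe set shared with Ldhal1 and is given apart. The 9 genes had 23 probe sets of the 26202 other than controls.

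Rat vessels were in 5 states. The oxygen ductus came from fetuses at day 19 of gestation whose dams were kept in 100% oxygen for the last 3 h before delivery by caesarean section. The newborn ductus and newborn aorta (arch and thoracic part) were taken 3 h after vaginal delivery. The fetal ductus and fetal aorta came from day 19 fetuses of dams in normal air. Fetal vessels, those of the oxygen group included, were dissected in cold medium gassed with 2.5% oxygen and newborn vessels with 12.5% oxygen. The labels give no gestational age for the newborns, so age may differ from day 19 as well. Birth, age and the gas of dissection therefore cannot be told apart, and "birth effect" below covers all of them. The 15 Affymetrix arrays comprised 1 per state on chips A, B and C, and the number of animals behind an array is not stated. No state had replicates. Ratios between 2 states are therefore descriptions of 2 arrays, their number limits the precision, and no test was made on them.

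Cells sense oxygen through prolyl hydroxylases, which mark the HIF alpha subunits for destruction when oxygen is ample. In low oxygen the subunits persist, pair with Arnt and bind short ACGTG or GCGTG motifs near target genes. These genes include glucose transporters, glycolytic enzymes, Vegfa, which promotes vessel growth, the vasodilator peptide Adm, and Bnip3, a mitochondrial protein of mitophagy and cell death. The ductus leaves the low oxygen of the fetus at birth and closes. The arrays measured transcripts and not HIF protein.

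Signals are linear intensities without an absolute unit. The floor of each chip was its median signal over all arrays (150 on A, 242 on B and 243 on C), and 46.9% to 51.9% of probe sets lay above it per array. A signal under the floor was set to the floor. A ratio with 1 side at the floor is a lower bound on the size of the difference, and there is none where both sides are under it. For each gene the brightest probe set was used. A log2 ratio of a gene with the same birth response in both vessels had a robust SD of 0.30 over 10882 probe sets, which serves as the scale of array error. Smooth muscle markers were all above the floor in every state, but their levels differed. Their median log2 ratio was 0.59 in newborn over fetal ductus, 0.44 in newborn over fetal aorta and 0.19 in oxygen over fetal ductus. It was 0.69 in fetal ductus over fetal aorta and 0.84 in newborn ductus over newborn aorta. Their summed signal was 98851 in newborn ductus, against 65208 in fetal ductus. The part of smooth muscle in the member values was not tested. In bulk RNA, fewer cells of a type and less RNA per cell cannot be told apart.

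Bnip3 stood apart at birth in both vessels. Its probe set on chip B had a signal of 4043.5 in newborn ductus, against 938 in fetal ductus. It had 3191 in newborn aorta, against 1162 in fetal aorta. Both newborn arrays lay above all 3 others, and the oxygen ductus, at 961, was close to the fetal ductus. The log2 ratio of newborn over fetal ductus was 2.11 (4.31-fold), rank 4 from the top of 7553 genes compared. That of newborn over fetal aorta was 1.46 (2.75-fold), rank 56 of 7679 genes. The log2 ratio of oxygen over fetal ductus was 0.04. In order of level, newborn ductus came first, followed by newborn aorta, fetal aorta, oxygen ductus and, lowest, fetal ductus. The first pair differed by 0.34 on the log2 scale and fetal ductus lay 0.31 below fetal aorta, both close to the array error of 0.30. Bnip3 has no second probe set here, so these values could not be set beside another probe set.

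The birth effect could be tested over both vessels, with the newborn pair against the fetal pair. In limma's additive model of vessel and stage, Bnip3 rose by 1.78 on the log2 scale (SE 0.24, 4 arrays, adjusted p = 0.00877), higher in 2 of 2 vessels. Over all 3 chips, 132 of 13812 probe sets (0.956%) rose and 101 (0.731%) fell past an adjusted p of 0.05. Of 18 member probe sets tested, Bnip3's was the 1 past the threshold. The unadjusted p was under 0.05 for 2 of these 18, Bnip3 and the chip C probe set of Pfkm (effect -0.53, SE 0.20, adjusted p = 0.232). The model has 1 residual degree of freedom. With a lower floor, at the 25th percentile of the chip, it called 0 of 20504 probe sets (2719 at an unadjusted p under 0.05) and the adjusted p of Bnip3 was 0.204. Over all 4 alternatives its adjusted p ranged from 7.77e-07 to 0.204 and its effect from 1.76 to 1.78.

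**Figure D1:**
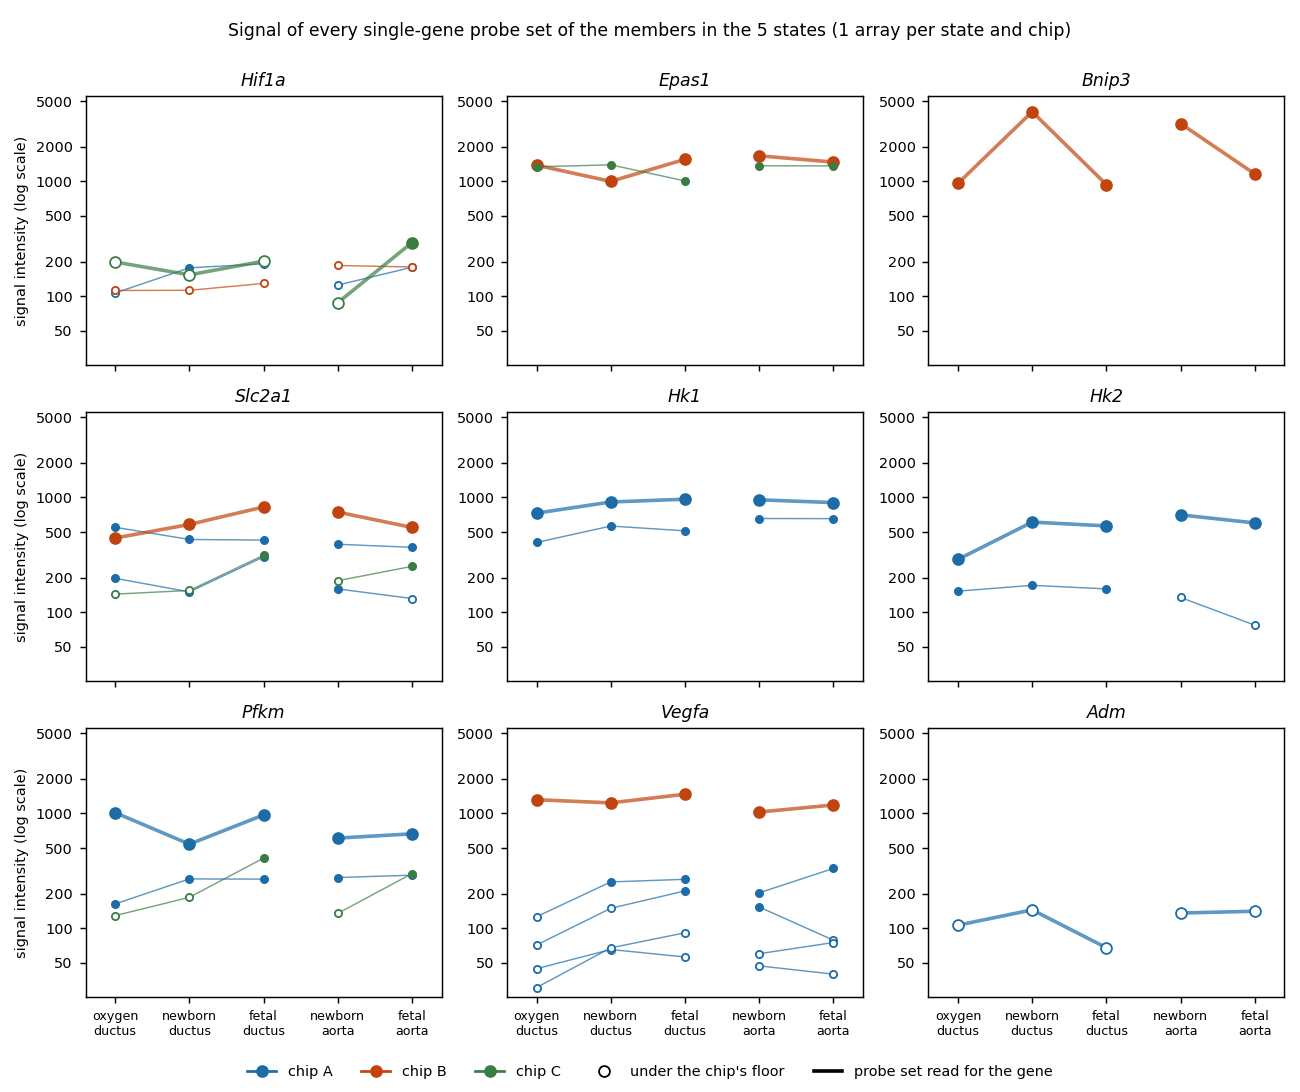
Signal intensity (log scale) of every single-gene probe set of the 9 measured members in the 5 states, 1 array per point. Colours mark the chip, open points lie under the chip's floor, and thick lines are the probe sets read for each gene. Bnip3 reaches 4043.5 in newborn ductus and 3191 in newborn aorta, above its other 3 states.

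Genes whose profiles over the 5 states lay nearest to that of Bnip3 were sought by Euclidean distance between mean-centred log2 profiles, among 6249 genes above the floor in every state. The nearest were Alox15, a lipoxygenase (distance 0.44), Atf3, a stress-induced transcription factor (0.50), and Isca1, which takes part in iron-sulphur cluster assembly (0.53). Alox15 had signals of 932 in newborn ductus, against 164 in fetal ductus. It had 836 in newborn aorta, against 232 in fetal aorta. Likeness over 5 arrays is a description of these arrays.

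The promoters of 3 members are shown because Bnip3 had the largest ratios of the members at birth and Hk2 and Slc2a1 the largest under oxygen. Each is the 250 bases before the transcript start in RefSeq (build GRCr8), written 5′ to 3′ in the direction of the gene. Capitals mark ACGTG or GCGTG on either strand, where CACGTG holds a match on both strands and CACGC is GCGTG on the other strand.
Bnip3, chr1:203154963-203155212, minus strand: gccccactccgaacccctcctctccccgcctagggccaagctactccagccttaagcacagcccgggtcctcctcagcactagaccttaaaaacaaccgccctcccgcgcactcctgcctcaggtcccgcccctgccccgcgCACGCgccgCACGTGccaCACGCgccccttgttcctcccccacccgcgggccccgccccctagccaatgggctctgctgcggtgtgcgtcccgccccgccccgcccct
Slc2a1, chr5:138002272-138002521, plus strand: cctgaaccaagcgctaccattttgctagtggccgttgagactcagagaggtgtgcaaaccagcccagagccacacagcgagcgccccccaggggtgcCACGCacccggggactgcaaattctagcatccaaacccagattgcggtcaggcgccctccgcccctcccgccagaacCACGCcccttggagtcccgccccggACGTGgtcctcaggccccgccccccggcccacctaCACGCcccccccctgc
Hk2, chr4:116841276-116841525, minus strand: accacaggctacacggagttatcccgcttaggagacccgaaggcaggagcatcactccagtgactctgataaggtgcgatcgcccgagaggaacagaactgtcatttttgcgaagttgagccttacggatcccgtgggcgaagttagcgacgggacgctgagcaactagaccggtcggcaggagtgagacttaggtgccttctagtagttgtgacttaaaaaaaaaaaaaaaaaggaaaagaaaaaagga
The Bnip3 window holds 4 matches, at positions -108, -99, -98 and -90 from the start, of which the middle pair overlap in 1 CACGTG. The Slc2a1 window holds 4 matches spread from -153 to -16. The Hk2 window holds 0 matches. Over all 12 promoters listed for the 10 genes, 6 held a match, from Hif1a, Bnip3, Slc2a1, Hk1, Pfkm and Ldha. Of all 33469 promoters of the same length, 36.7% held at least 1. A match is a run of letters and not a measured binding site.

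Neither HIF gene passed the test for a birth effect where it could be tested. Epas1 encodes HIF-2 alpha, the subunit best known from endothelium. On chip B its signal was 1000.3 in newborn ductus, against 1557 in fetal ductus, a log2 ratio of -0.64 (1.56-fold lower). On chip C its signal was 1394 in newborn ductus, against 1009.8 in fetal ductus, a log2 ratio of 0.47 in the opposite direction. Both probe sets were above the floor on all 5 arrays, so the chips disagree on the direction of Epas1 in the ductus. In the aorta the ratios were 0.18 on chip B and 0.0036 on chip C, both within the array error. The birth effect over both vessels did not pass on either chip (-0.23, limma adjusted p = 0.689 on B, and 0.23, adjusted p = 0.572 on C). Endothelial markers, with 6 of 8 compared, had a median log2 ratio of 0.64 in newborn over fetal ductus and a summed signal of 9170 in newborn ductus, against 6119 in fetal ductus. Their part in the Epas1 values was not tested.

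Hif1a encodes the subunit that most cells stabilise in low oxygen. Its 3 probe sets were dim. The chip C probe set that was read had 87.8 in newborn aorta, against 293 in fetal aorta. Its fetal aorta array was the 1 above the floor, which gives a log2 ratio of -0.27 or lower. With the lower floor this ratio was -1.74, past 1.5-fold. The chip A probe set had 177 in newborn ductus, against 192 in fetal ductus, a log2 ratio of -0.12. Its birth effect was -0.19 (limma adjusted p = 0.676), and the other Hif1a probe sets were too dim to be tested. The chip B probe set was under the floor on every array. Adm was under the floor on all 5 arrays, with signals of 67.8 to 145, so no ratio was formed for it.

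Glucose entry and phosphorylation came next in the pathway. Slc2a1, the basal glucose transporter GLUT1, had a signal on chip B of 582 in newborn ductus, against 826 in fetal ductus. It had 746 in newborn aorta, against 548 in fetal aorta. The log2 ratios were -0.51 in the ductus and 0.45 in the aorta, both under 1.5-fold. Of its 4 probe sets, 3 were below zero in the ductus (lowest -1.01) and 3 above zero in the aorta. Beside chip B, those above zero in the aorta were on chip A. Their ratios were 0.09, within the array error, and 0.09 or higher, a bound. The chip A probe set with the lowest ratio had 150.5 in newborn ductus, just above the floor, against 303.5 in fetal ductus.

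Hexokinases phosphorylate glucose on its way into glycolysis. Hk1, the widely expressed form, had 913 in newborn ductus, against 965 in fetal ductus, and 953 in newborn aorta, against 902 in fetal aorta. Hk2, the insulin-responsive form of muscle and fat, had 610 in newborn ductus, against 565 in fetal ductus, and 705 in newborn aorta, against 599.8 in fetal aorta. The log2 ratios of both genes at birth lay between -0.08 and 0.23, within the array error. Their birth effects did not pass in limma (adjusted p = 0.998 for Hk1 and 0.706 for Hk2).

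Pfkm encodes the muscle form of phosphofructokinase, a control point of glycolysis. Its brightest probe set had 540.5 in newborn ductus, against 971 in fetal ductus, a log2 ratio of -0.85 (1.80-fold lower). It had 611 in newborn aorta, against 665 in fetal aorta, a log2 ratio of -0.12. A second chip A probe set had 269 in newborn ductus and 268 in fetal ductus, so it showed no such difference. The chip C probe set had 186 in newborn ductus, against 409 in fetal ductus, a log2 ratio of -0.75 or lower. It was thus lower on 2 of 3 probe sets in the ductus. Its birth effect did not pass at the brightest probe set (-0.48, SE 0.23, limma adjusted p = 0.309).

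Heart muscle markers were lower in the newborn ductus too. Of 9 markers, 8 were at least 1.5-fold lower in newborn over fetal ductus, against 9.59% of all genes, with a median log2 ratio of -1.75. Their summed signal was 7594 in newborn ductus, against 24332 in fetal ductus, and all 9 were above the floor in fetal ductus. In oxygen over fetal ductus the markers had a median of -0.36 and a summed signal of 19697 in oxygen ductus. There 2 of 9 were at least 1.5-fold lower and 1 higher, against 5.38% and 4.44% of all genes. Across the 2 fetal vessels the markers were higher in the ductus too, with 24332 in fetal ductus, against 9686 in fetal aorta. In the aorta the markers had 13247 in newborn aorta, against 9686 in fetal aorta, where the brightest Pfkm probe set had 611 in newborn aorta, against 665 in fetal aorta. The part of heart tissue in the Pfkm values was not tested.

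Vegfa, read on chip B, had 1237 in newborn ductus, against 1471 in fetal ductus, and 1029.7 in newborn aorta, against 1186 in fetal aorta. The log2 ratios were -0.25 and -0.20, both within the array error. The birth effect was -0.23 (limma adjusted p = 0.639). Its 4 other probe sets, all on chip A, were dimmer, and 2 of them were under the floor on every array. One of the others had 204 in newborn aorta, against 332 in fetal aorta, both above the floor, a log2 ratio of -0.70 (1.63-fold lower). In the ductus the same probe set had 254 in newborn ductus, against 267 in fetal ductus.

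Counted together, 1 of 7 members compared in the ductus was at least 1.5-fold higher in newborn over fetal ductus (Bnip3), and 7.56% of 7553 genes were. In that comparison 2 of 7 members were at least 1.5-fold lower (Pfkm and Epas1), against 9.59% of genes. With each gene read as the mean of its probe sets 0 were lower, with Pfkm at -0.53 or lower and Epas1 at -0.09. The Pfkm mean holds the chip C bound, so it cannot show that Pfkm was under 1.5-fold. The median log2 ratio was -0.25 for the 7 members and -0.05 for all genes. In newborn over fetal aorta, 1 of 8 members was higher (Bnip3), against 7.57% of 7679 genes, and 0 were lower, against 11% of genes. The medians were 0.13 for the 8 members and -0.05 for all genes. With 7 or 8 members, counts of 1 or 2 cannot be set apart from these shares. Against the oxygen ductus, 2 of 7 members were higher in newborn ductus (Bnip3, 4.21-fold, and Hk2, 2.11-fold), against 10.5% of 7537 genes. Pfkm was lower there (1.88-fold), 1 of 7, against 14.5% of genes. A second Pfkm probe set went the other way, with 269 in newborn ductus, against 163 in oxygen ductus (1.65-fold higher). The second Hk2 probe set had a log2 ratio of 0.17, with signals near the floor (172 in newborn ductus and 153 in oxygen ductus). This comparison shares the newborn ductus arrays with the one above.

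Members were also compared between the vessels, where counts of 0 or 1 of 7 or 8 cannot be set apart from the shares of all genes. In fetal ductus over fetal aorta, 1 of 8 members was at least 1.5-fold higher (Slc2a1, 1.51-fold), against 4.2% of 7612 genes, and 0 were lower, against 5.1%. Slc2a1 had 826 in fetal ductus, against 548 in fetal aorta. Its other probe sets were higher in fetal ductus too, by at least 2.03-fold and by 1.16-fold on chip A and by 1.25-fold on chip C. At 3 h after birth, 0 of 7 members were higher in newborn ductus over newborn aorta, against 6.18% of 7530 genes, and 1 was lower (Epas1, 1.67-fold), against 5.98%. On chip C, Epas1 had 1394 in newborn ductus and 1368 in newborn aorta, so that probe set showed no such difference.

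**Figure D2:**
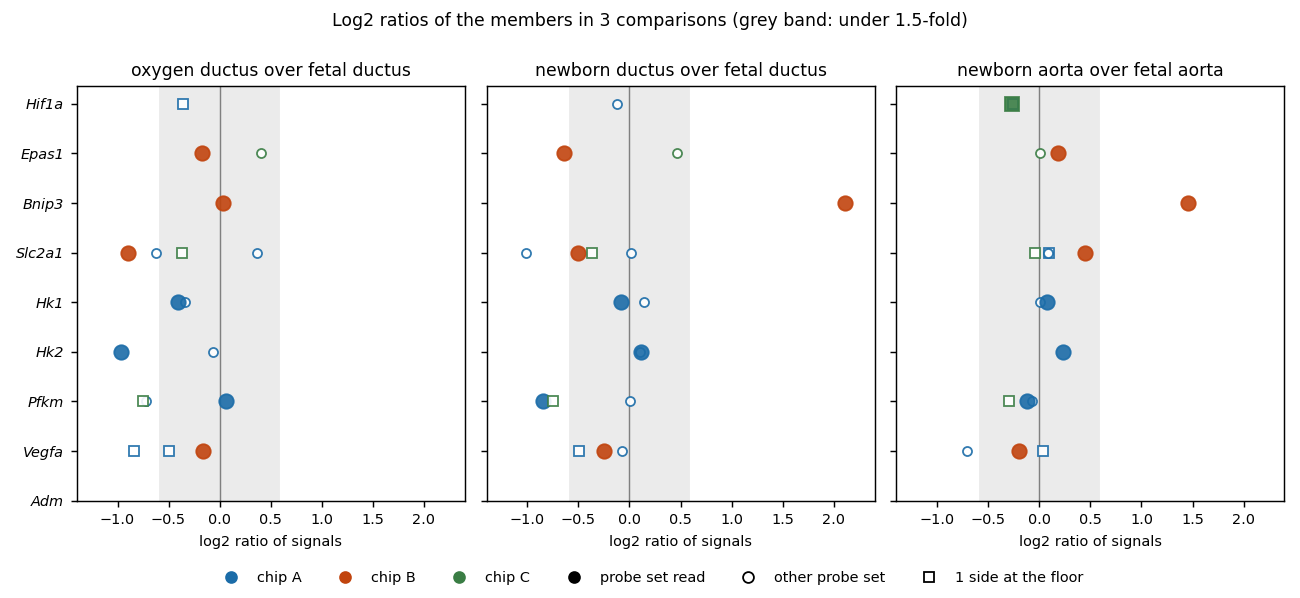
Log2 ratio of signals for each member in 3 comparisons: oxygen over fetal ductus, newborn over fetal ductus, and newborn over fetal aorta. Filled symbols are the probe sets read and open ones the gene's other probe sets, squares have 1 side at the floor, and the grey band is under 1.5-fold. Bnip3 lies at 2.11 and 1.46 in the newborn comparisons and at 0.04 under oxygen, and the probe sets of Epas1 lie on both sides of zero in the ductus.

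At the probe sets read, Hk2 and Slc2a1 had lower signals in the oxygen ductus than in the fetal ductus. Hk2 had 289 in oxygen ductus, against 565 in fetal ductus, a log2 ratio of -0.97 (1.96-fold lower), rank 75 from the lowest of 7459 genes. The oxygen ductus was the lowest of the 5 states, and the other 4 lay between 565 and 705. The second Hk2 probe set had 153 in oxygen ductus and 159.8 in fetal ductus, a log2 ratio of -0.07. Both signals were just above the chip A floor of 150, so this probe set could hardly show a fall. Slc2a1 had 443 in oxygen ductus, against 826 in fetal ductus, a log2 ratio of -0.90 (1.87-fold lower), rank 94 from the lowest. Its other 3 probe sets differed, with log2 ratios of -0.62 and 0.37 on chip A and of -0.37 or lower on chip C.

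The other members were under 1.5-fold at the probe set read. Hk1 had 730.2 in oxygen ductus, against 965 in fetal ductus, a log2 ratio of -0.40. Epas1 had 1384 in oxygen ductus, against 1557 in fetal ductus, a log2 ratio of -0.17 on chip B, and 0.41 on chip C. Bnip3 had a log2 ratio of 0.04. Pfkm had 1017 in oxygen ductus, against 971 in fetal ductus, a log2 ratio of 0.07. Its other 2 probe sets were lower, with 163 in oxygen ductus, against 268 in fetal ductus, on chip A (log2 ratio -0.72) and 129, against 409, on chip C (-0.75 or lower). The direction of Pfkm under oxygen thus differed between its probe sets. Vegfa had 1318 in oxygen ductus, against 1471 in fetal ductus, a log2 ratio of -0.16. Its other 2 probe sets with a ratio had log2 ratios of -0.50 and -0.83 or lower, with the oxygen ductus under the floor.

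In all, 0 of 7 members were at least 1.5-fold higher in oxygen over fetal ductus, against 4.44% of 7459 genes, and 2 were lower (Hk2 and Slc2a1), against 5.38%. The medians were -0.17 for members and 0.04 for all genes. Taking every member probe set with a ratio, 14 of 18 (77.8%) were below zero, against 51.0% of all 13793. These 18 are not independent, since Slc2a1 gave 4 of them and Pfkm and Vegfa 3 each. By gene, at the probe set read, 5 of 7 members were below zero. The oxygen ductus also had the lowest share of probe sets above the floor on each chip (46.9% on A, 47.6% on B and 48.4% on C). The part of this lower share in the member values was not tested. When each gene was read as the mean of its probe sets, 0 members were 1.5-fold lower. The means were -0.52 for Hk2, -0.38 or lower for Slc2a1 and -0.47 or lower for Pfkm. The Slc2a1 and Pfkm means each hold a chip C bound, so this count may be too low.

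A sign of RNA quality moved with the oxygen ductus on all 3 chips. The ratio of 3′ to 5′ control probe sets for Actb was 2.54 to 3.26 on the 3 oxygen ductus arrays, against 1.19 to 1.51 on the other 12. That for Gapdh was 1.69 to 2.49, against 1.26 to 1.58. Agreement among probe sets of 1 gene was counted as well. For genes read at least 1.5-fold apart, 56.4% of 344 other probe sets of the same gene went the same way in oxygen over fetal ductus. The shares were 77.3% of 603 in newborn over fetal ductus and 82.7% of 734 in newborn over fetal aorta, and the difference between these shares was not tested. The part of RNA quality in the lower Hk2 and Slc2a1 signals was not tested.

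Hk1 allowed a repeat across chips, because its 3 control probe sets are the same on A, B and C. The 3′ control had 155, 236 and 201 in oxygen ductus on A, B and C, against 306, 468 and 385 in fetal ductus. Oxygen ductus was the lowest state on 3 of 3 chips, and the log2 ratio ranged from -0.98 to -0.66 with bounds on B and C. The brightest Hk1 probe set, given above, had a smaller ratio of -0.40. Whether the 3 chips of a state received the same RNA is not stated, so they may repeat the hybridisation and not the animals. The 5′ controls were under the floor on every array of every chip.

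**Figure D3:**
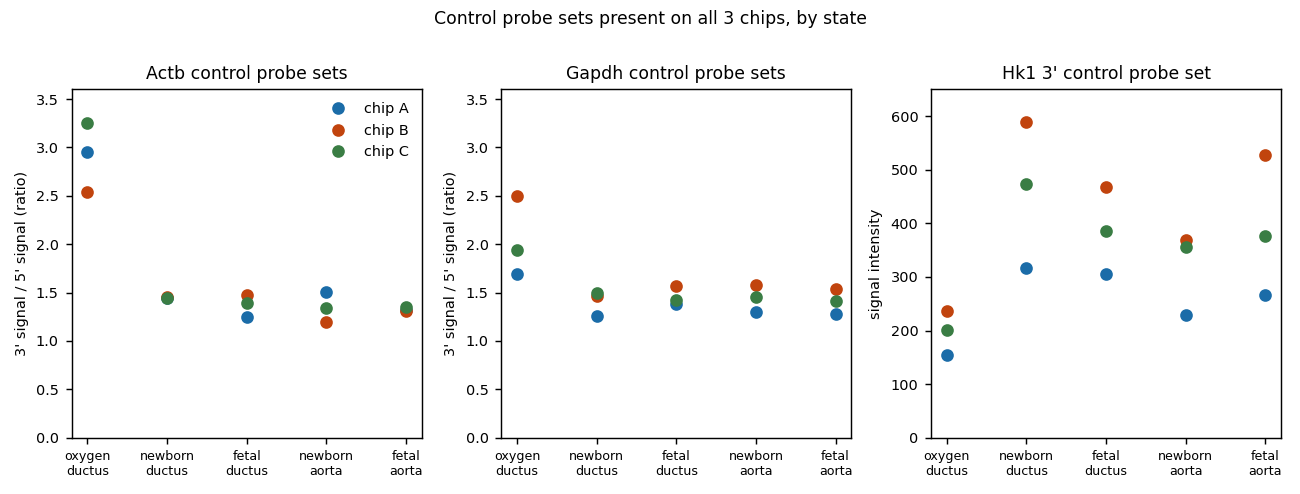
The first 2 panels show the ratio of 3′ to 5′ signal for the Actb and Gapdh control probe sets, and the third the signal intensity of the Hk1 3′ control, by state, 1 point per chip. The 3 oxygen ductus points lie at 2.54 to 3.26 for Actb, above the other 12 at 1.19 to 1.51, and the Hk1 control is lowest there on each chip.

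The profile nearest to that of Hk2, by the same distance, was that of Efhd2, a calcium-binding protein gene (0.16). Ephx2, a soluble epoxide hydrolase (0.17), and Ank1, an ankyrin (0.19), followed. Ephx2 had 260.5 in oxygen ductus and 488 in newborn ductus, against 458 in fetal ductus.

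A wider set of 133 genes in 7 lists covered the rest of the pathway, members left out, and 116 of them had a probe set. In oxygen over fetal ductus, 2 of 89 compared were at least 1.5-fold higher and 4 lower, against 4.44% and 5.38% of all genes. The counts were 13 higher and 6 lower of 94 in newborn over fetal ductus, against 7.56% and 9.59% of all genes. They were 11 higher and 8 lower of 91 in newborn over fetal aorta, against 7.57% and 11%. The medians were 0.01, -0.06 and 0.02. Of 91 genes tested for a birth effect at their brightest probe set, 1 passed, Ramp1, against 0.956% of all probe sets higher and 0.731% lower.

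Ramp1 encodes a partner protein of the calcitonin receptor-like receptor, which sets its preference among calcitonin gene-related peptide and adrenomedullin. Ramp1 had 2768 in newborn ductus, against 1468 in fetal ductus. It had 3782 in newborn aorta, against 1481 in fetal aorta. It rose by 1.13 (SE 0.23, limma adjusted p = 0.0353), higher in 2 of 2 vessels, and its adjusted p over the alternatives ranged from 0.00058 to 0.231. It was past the threshold neither with the lower floor nor with quantile normalization (adjusted p = 0.0652). In the oxygen ductus it had 2563, also above the fetal ductus (1.75-fold), and Bnip3 there had 961, near its fetal level. Calcrl, the receptor itself, had 227 in newborn ductus, against 148 in fetal ductus, a difference of at least 1.51-fold. Gpr182, a receptor once proposed to bind adrenomedullin, was 2.14-fold lower in newborn over fetal ductus and 1.68-fold higher in newborn over fetal aorta. The lower signal of each pair, 246.8 in newborn ductus and 246.3 in fetal aorta, was just above the chip B floor of 242. Its birth effect did not pass (-0.17, limma adjusted p = 0.855).

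The oxygen sensing list held the hydroxylases, Vhl and the HIF partners, and 15 of 15 with a probe set were compared. In oxygen over fetal ductus 0 were 1.5-fold apart, against 4.44% of all genes higher and 5.38% lower. In newborn over fetal ductus 1 was lower, the ubiquitin ligase scaffold Cul2 (1.60-fold), against 9.59% of all genes. Cited2, an inhibitor of HIF that competes for its coactivator, was 1.61-fold higher in newborn over fetal aorta, and the hydroxylase Egln3 1.69-fold lower. Egln3 is itself HIF-induced, and it had 621 in newborn ductus, against 880.2 in fetal ductus, and 333 in newborn aorta, against 563 in fetal aorta. Both newborn arrays were lower than their fetal arrays, but the birth effect did not pass (limma adjusted p = 0.137). Egln1 had 965.5 in newborn ductus, against 1237 in fetal ductus. Arnt had 192 in newborn ductus, against 246 in fetal ductus.

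Glycolytic enzymes mostly differed by less than 1.5-fold. With Hk1, Hk2 and Pfkm included, 14 were compared, and Hk2 under oxygen and Pfkm in the newborn ductus were the ones 1.5-fold apart, both lower. Among all genes, 5.38% were lower in oxygen over fetal ductus and 9.59% in newborn over fetal ductus. None of the 14 was 1.5-fold apart in newborn over fetal aorta, against 7.57% of all genes higher and 11% lower. Pgk1, the ATP-forming kinase and a textbook HIF target, had 2911 in newborn ductus and 4105 in oxygen ductus, against 3836 in fetal ductus. Eno1 had 5350.4 in newborn ductus and 5802 in oxygen ductus, against 6001 in fetal ductus. Pgam1 had 6888 in newborn ductus and 6568 in oxygen ductus, against 6950.5 in fetal ductus. The list's median log2 ratio was 0.01 in oxygen over fetal ductus, -0.15 in newborn over fetal ductus and -0.01 in newborn over fetal aorta.

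Of the genes that handle glucose, lactate and pyruvate, Slc2a1 included, 2 of 20 compared were higher and 1 lower in newborn over fetal ductus, against 7.56% and 9.59% of all genes. In newborn over fetal aorta 3 of 18 were higher and 1 lower, against 7.57% and 11%, so the list's shares were not far from those of all genes. Pdk4, a kinase that inhibits pyruvate dehydrogenase, had 769 in newborn ductus, against 169 in fetal ductus, at least 3.16-fold higher. It had 343 in newborn aorta, against 161 in fetal aorta, and its birth effect did not pass (limma adjusted p = 0.135). Pdk2 was 1.62-fold higher in newborn over fetal ductus, and the transporter Slc2a3 was just past 1.5-fold lower. Higher in newborn over fetal aorta were the mitochondrial pyruvate carrier Mpc1 (1.80-fold), the insulin-responsive transporter Slc2a4 (1.78-fold) and the dehydrogenase subunit Pdhb (1.52-fold). Pdk3 was 1.64-fold lower there. The summed signal of 8 fat markers was higher in both newborn vessels. It was 2207 in newborn ductus, against 1048 in fetal ductus, and 24207 in newborn aorta, against 1406 in fetal aorta. In newborn over fetal ductus 4 of 4 compared were at least 1.5-fold higher (median log2 ratio 0.95 or higher), against 7.56% of all genes. The other fat markers were under the floor in both ductus states. In newborn over fetal aorta 7 of 7 were higher (median 2.55 or higher), against 7.57% of all genes. However, 5 of the 8 were under the floor in fetal aorta, against 1 in newborn aorta. Markers compared only through the newborn side could only count as higher. The part of fat in these values was not tested.

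Among other HIF-responsive genes, 5 of 24 compared were higher and 1 lower in newborn over fetal ductus, against 7.56% and 9.59% of all genes. The growth and stress regulator Ddit4 was 1.93-fold higher, the Myc antagonist Mxi1 1.76-fold and ceruloplasmin, Cp, at least 1.66-fold. The cytokine Mif was 1.55-fold lower. Of 23 compared in newborn over fetal aorta, 5 were higher and 3 lower, against 7.57% and 11% of all genes. The nitric oxide synthase Nos2 was at least 2.88-fold and the transferrin receptor Tfrc 2.33-fold higher, with Tgfb3 1.64-fold. The vessel destabilising ligand Angpt2 was 2.90-fold, the chemokine receptor Cxcr4 1.71-fold and Mif 1.59-fold lower. Edn1, the vasoconstrictor endothelin 1, was 1.63-fold higher in newborn over fetal ductus and 1.54-fold in newborn over fetal aorta, and Cp was 1.60-fold higher in newborn over fetal aorta. Mif was lower in both newborn vessels, with 2593 in newborn ductus, against 4008 in fetal ductus, and 2462 in newborn aorta, against 3921 in fetal aorta. The birth effects of these 3 genes did not pass (limma adjusted p = 0.114 for Edn1, 0.115 for Cp and 0.121 for Mif). In oxygen over fetal ductus, Angptl4 was at least 1.97-fold higher, and the collagen hydroxylase Plod1 (1.77-fold) and Ndrg1 (1.61-fold) were lower.

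The VEGF family list held the other ligands and the receptors. The newborn ductus had the lymphatic ligand Vegfd 1.57-fold and the receptor Flt1 at least 1.53-fold above the fetal ductus. The newborn aorta went the other way for Vegfd: against the fetal aorta, Vegfc was at least 2.34-fold, the coreceptor Nrp1 2.07-fold and Vegfd 2.00-fold lower. Nrp1 had 1265 in newborn aorta, against 2624 in fetal aorta. Flt1 signals were 224 to 371 and Kdr was under the floor on all 5 arrays. Endothelial markers were at least 1.5-fold higher for 4 of 6 compared in newborn over fetal ductus (median log2 ratio 0.64), against 7.56% of all genes. In newborn over fetal aorta 4 of 7 were (median 0.89), against 7.57%. Cdh5 was not among them, with 1550.5 in newborn ductus, against 1434 in fetal ductus, and 1696 in newborn aorta, against 1830 in fetal aorta. Nerve and chromaffin markers were at least 1.5-fold lower for 4 of 5 compared in newborn over fetal aorta (median -1.49 or lower), against 11% of all genes. In newborn aorta 5 of 6 of them were under the floor, against 1 in fetal aorta. All their ratios but that of Th were thus bounds that could only be below zero. The part of both marker sets in the VEGF family values was not tested, nor whether the 2 vessels differ.

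Bnip3 acts in mitophagy beside its relative Bnip3l, and the list of mitophagy and BCL2 genes was set beside it. Bnip3l had 3321 in newborn ductus, against 2408 in fetal ductus, and 3626 in newborn aorta, against 3565 in fetal aorta. Its log2 ratios were 0.46 and 0.02, and its birth effect did not pass (limma adjusted p = 0.588). Map1lc3b, which coats autophagosomes, was 2.47-fold higher in newborn over fetal ductus, with 1504 in newborn ductus, against 608 in fetal ductus. It had 952 in newborn aorta, against 853 in fetal aorta, and its birth effect did not pass (limma adjusted p = 0.239). The survival gene Bcl2l1 was 1.60-fold higher in newborn over fetal ductus, and Bnip1 (1.63-fold) and the mitophagy receptor Fundc1 (1.54-fold) were lower. Of 15 compared in newborn over fetal aorta, 0 were 1.5-fold apart, against 7.57% of all genes higher and 11% lower. In oxygen over fetal ductus, the survival genes Bcl2 (1.82-fold) and Mcl1 (1.60-fold) were lower.

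**Figure D4:**
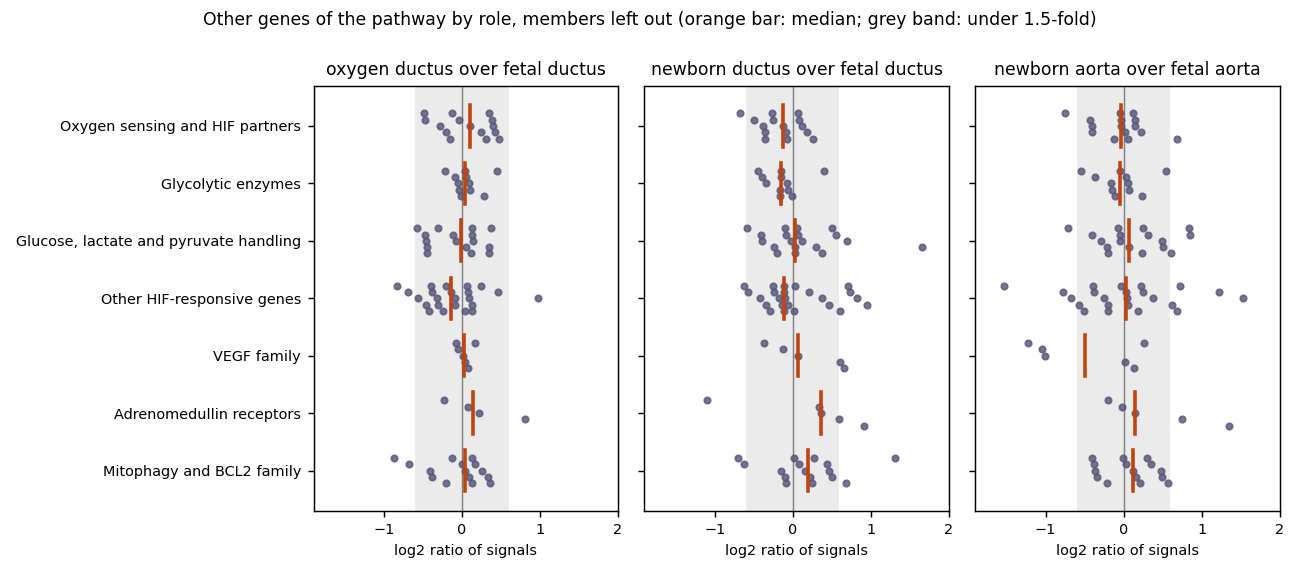
Log2 ratio of signals of the other genes of the pathway by list, members left out, in oxygen over fetal ductus, newborn over fetal ductus and newborn over fetal aorta. Each point is a gene at its brightest probe set, orange bars are list medians, and the grey band is under 1.5-fold. Outside the band lie 2 higher and 4 lower of 89 under oxygen, against 4.44% and 5.38% of all genes. In newborn ductus they are 13 and 6 of 94, against 7.56% and 9.59%. In newborn aorta they are 11 and 8 of 91, against 7.57% and 11%.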

How the data were processed

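Total RNA was measured on 15 Affymetrix arrays. The deposited values are linear signal intensities, 1 per probe set, made by the authors with MAS5 for 4 of 5 chip A arrays, per the submitters' processing notes; for the others the software is not given in the sources used here. The mean after trimming 2% at each end was 500.3 to 500.9 on every array, so the scale was kept. Single-array intensities carry no depth, and the number of arrays limits the precision.

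States came from the labels. One newborn aorta title gives 3 h post coitum; its description settled it as newborn. Probe sets were named by platform annotation (18178 with 1 gene, 391 with several, 7633 with none). Intensities were floored at the chip's median before log2. Each gene took its brightest probe set, controls apart. Pair ratios had no test. limma 3.58.1 (R 4.3.3) fitted vessel and stage on 4 arrays per chip, using probe sets with 2 or more of these arrays over the floor, with Benjamini-Hochberg adjustment per chip (prior degrees of freedom 6.60, 9.86 and 5.96); the script was tested on simulated data. Members and lists were chosen with earlier results of these data known. Named genes were all members, up to 3 per list, direction and comparison past 1.5-fold, and the 3 nearest profiles of members spanning at least 1 log2 unit. A few other list genes (Pgk1, Eno1, Pgam1, Egln1, Arnt, Bnip3l, Edn1 and Kdr) were named after their values were seen. Alternatives were a lower and a higher floor (25th and 60th percentile), quantile normalization, the mean over a gene's probe sets, and limma with an intensity trend.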

Additional observations from a re-analysis of the deposited data

Results flagged for a closer look

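Slc2a1 at its chip B probe set went opposite ways at birth in the 2 vessels. Its log2 ratio was -0.51 (-0.5058) in newborn over fetal ductus and 0.45 (0.4455) in newborn over fetal aorta. Each value compares 1 array with 1 array, and the difference between the vessels was not tested. Both ratios were under 1.5-fold. The other 3 probe sets had log2 ratios of -1.01, 0.02 and, as a bound, -0.37 or lower in the ductus. In the aorta they had 0.09 or higher (a bound), 0.09 and -0.05 or lower (a bound).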

How the results depend on the processing

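A count was taken as unmoved if it changed by no more than 1.5-fold, and a median if it shifted by less than the array error. By this rule counts and medians were unmoved under 53 recomputations and moved under 11. Unmoved values could still differ. With the mean over probe sets, the member median in oxygen over fetal ductus went from -0.17 to -0.37. With the lower floor, wider-list genes lower in newborn over fetal ductus went from 6 to 9. With the lower floor, members 1.5-fold higher numbered 1 in oxygen over fetal ductus and 2 in newborn over fetal ductus, the added one being Adm, and 1 was lower in newborn over fetal aorta, Hif1a, at -1.74. Genes of the wider lists then numbered 5 higher and 7 lower in oxygen over fetal ductus, and 18 lower in newborn over fetal aorta. The lower floor also left 0 members past the limma threshold. With the higher floor, the wider lists had 1 higher in oxygen over fetal ductus and 8 higher in newborn over fetal ductus. With the mean over probe sets, 0 members were lower in oxygen over fetal ductus and 0 in newborn over fetal ductus. In the latter Epas1 was at -0.09 and Pfkm at -0.53 or lower. Means that hold a bound may leave these counts too low. Quantile normalization turned the sign of the Hk1 birth effect, 0.000674 against -0.00113, both near zero. Member ratios moved by less than the array error in 80 recomputations and by more in 7. Beyond what the construction of a setting shows, the cause was not tested. Over all probe sets, limma called 132 higher and 101 lower, 231 and 212 with the higher floor, 136 and 114 after quantile normalization, 315 and 217 with an intensity trend, and 0 with the lower floor (2719 at an unadjusted p under 0.05). No paired analysis was possible because the labels give no replicate numbers and each state has 1 array per chip. Signals near the floor limit Hif1a and Adm.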

Other observations

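The probe set shared by Ldha, the lactate dehydrogenase subunit that HIF is known to induce, and Ldhal1 was bright in every state. It had 4663 in newborn ductus and 6128 in oxygen ductus, against 5528 in fetal ductus. It had 5532 in newborn aorta, against 5401 in fetal aorta. How much of it belongs to either gene was not tested.

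The Hk1 control probe set of the transcript's middle part had 559 in newborn ductus on chip B, against 60.8 in fetal ductus. On chip C it had 254, against 88.4, and on chip A 113, against 131. It was above the floor in newborn ductus on B and C and in no other array.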
